A study of Mus musculus with 4 samples.

Results

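The respiratory chain and ATP synthase of the mouse were followed through 108 genes of the 50763 in the count table, 95 encoded in the nucleus and 13 in the mitochondrial genome. They were chosen by symbol: the subunits of NADH dehydrogenase (complex I), succinate dehydrogenase (complex II), the cytochrome bc1 complex (complex III), cytochrome c oxidase (complex IV) and ATP synthase (complex V), both cytochromes c, and the 13 mitochondrial protein genes. Rows named as pseudogenes were left out (15 rows). Of the 108 genes, 105 had enough counts to be tested. ATP8, Ndufa11b and Cox8b did not.

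Polyadenylated RNA of pachytene spermatocytes from mouse testis was sequenced in 4 libraries: 2 of wild-type (WT) genotype and 2 in which Hsf5, a heat shock factor gene expressed in the testis, was knocked down. Pachytene is the stage of meiotic prophase in which the homologous chromosomes are fully paired. The way the knockdown was made, the strain and the age were not stated in the sources used here. The replicates carry the word biological but no animal is named, and p-values therefore cover only the spread among the libraries sequenced.

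Complexes I, III and IV pass electrons from NADH to oxygen and pump protons across the inner mitochondrial membrane, complex II feeds in electrons from succinate, cytochrome c carries electrons from complex III to complex IV, and ATP synthase uses the proton gradient. The mitochondrial genome encodes central subunits of complexes I, III, IV and V, so each of these is assembled from products of both genomes, while complex II is wholly nuclear. The testis has its own forms of several subunits: Cox6b2, Cox7b2 and Cox8c in complex IV and cytochrome c, testis (Cyct) take the place of Cox6b1, Cox7b, Cox8a and somatic cytochrome c (Cycs) in male germ cells.

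The libraries held 33287428 to 42479164 counts. Hsf5 itself stood at 586 and 449 CPM (counts scaled to library size with TMM factors) in WT and at 287 and 238 in the knockdown, that is -0.98 on the log2 scale (standard error, SE, 0.31; edgeR quasi-likelihood test, Benjamini-Hochberg adjusted p = 0.0217, n = 2 per group). This call was lost with library totals as the scaling (adjusted p = 0.116), without WT replicate 1 (0.219) and without WT replicate 2 (0.0725). All 13 markers of mid and late pachytene spermatocytes were lower in the knockdown, with summed levels of 13277 and 12531 CPM in WT and 2475 and 1972 CPM in the knockdown, and so were all 13 spermatid markers (4192 and 2078 against 6.33 and 7.13 CPM), of which Prm2, Prm3 and Smcp had no count in the knockdown. Of the leptotene and zygotene markers 9 of 11 were higher and 2 lower, with sums of 592 and 491 against 2142 and 1027 CPM, and of the spermatogonial markers 7 of 11 were higher (177 and 162 against 769 and 695 CPM). All 14 Sertoli cell markers and all 8 Leydig cell markers were higher, the Sertoli markers summing to 231 and 535 CPM in WT and 4807 and 5459 CPM in the knockdown, and the Leydig markers to 119 and 817 against 1445 and 2936 CPM. Markers of immune cells (10 of 12 higher), of peritubular and endothelial cells (6 of 9) and of red blood cells (4 of 5) summed to at most 27.3 CPM in WT and to at most 224 CPM in the knockdown. These marker counts stand beside all 23594 genes tested, of which 27.4% were higher and 33.5% lower. No Sertoli or Leydig marker was at 0 in either group. In RNA of many cells, fewer cells of a type and less RNA per cell cannot be told apart, and the part that these cell types have in the respiratory chain values below was not tested.

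The promoters of 2 isoform pairs are shown first, and no value in the comparison of testis with somatic forms below rests on these promoters. They are the 250 bases before the RefSeq transcription start in GRCm38.p6, all on the minus strand, read 5′ to 3′ toward the gene: chr7:4753095-4753344 (Cox6b2), chr7:30626115-30626364 (Cox6b1), chr2:76360454-76360703 (Cyct) and chr6:50566570-50566819 (Cycs). Capitals mark the letters of any of the motifs searched.
Cox6b2: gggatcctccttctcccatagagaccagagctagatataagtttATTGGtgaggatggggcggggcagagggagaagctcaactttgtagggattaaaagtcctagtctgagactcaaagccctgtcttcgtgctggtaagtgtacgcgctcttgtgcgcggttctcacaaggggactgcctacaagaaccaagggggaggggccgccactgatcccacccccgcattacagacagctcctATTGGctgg
Cox6b1: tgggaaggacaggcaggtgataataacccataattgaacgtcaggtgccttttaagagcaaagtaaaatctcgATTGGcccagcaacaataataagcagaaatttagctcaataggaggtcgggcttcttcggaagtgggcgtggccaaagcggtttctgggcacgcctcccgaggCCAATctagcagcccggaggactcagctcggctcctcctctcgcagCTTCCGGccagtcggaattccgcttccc
Cyct: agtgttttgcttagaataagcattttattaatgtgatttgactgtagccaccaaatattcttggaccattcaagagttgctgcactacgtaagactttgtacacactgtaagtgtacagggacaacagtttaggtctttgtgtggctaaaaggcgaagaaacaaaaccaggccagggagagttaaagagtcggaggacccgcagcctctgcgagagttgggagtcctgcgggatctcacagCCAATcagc
Cycs: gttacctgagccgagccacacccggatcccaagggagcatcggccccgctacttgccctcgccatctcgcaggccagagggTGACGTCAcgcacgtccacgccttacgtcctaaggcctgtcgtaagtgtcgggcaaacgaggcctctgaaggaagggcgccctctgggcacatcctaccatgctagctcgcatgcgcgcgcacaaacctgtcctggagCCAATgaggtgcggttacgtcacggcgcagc
CCAAT or its complement was found in all 4. CCGGAAG, a core bound by ETS factors such as GABPA, was found in Cox6b1 only, and TGACGTCA, the cAMP response element, in Cycs only.

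Of the 95 nuclear genes 71 matched a RefSeq promoter, and the same motifs were counted on both strands in windows from 250 bases before to 50 after the start and set beside all 27025 RefSeq promoters of that length. GCGCA and GCGC separated by 1 base, a core bound by NRF1, an activator of nuclear respiratory genes, was in 16 of 71 (22.5%) against 4.78% of all promoters. CCGGAAG was in 15 of 71 (21.1%) against 9.12%, CCAAT in 31 of 71 (43.7%) against 37.9%, and TGACGTCA in 5 of 71 (7.04%) against 1.88%. The heat shock element core GAANNTTC was in 4 of 71 (5.63%) against 7.95%, the 4 being Sdha, Atp5f1b, Cox5a and Atp5f1c, and a longer form, in which GAANNTTC is followed after 2 bases by GAA, in none of the 71 against 0.529%. None of those 4 genes passed the test between the groups. These are matches of letters, and all promoters include those of genes of every kind.

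Messages of the mitochondrial genome took a larger share of the knockdown libraries. The 13 genes held 0.648% and 0.724% of all counts in WT replicates 1 and 2 and 3.47% and 2.43% in knockdown replicates 1 and 2, so both knockdown libraries lay above both WT libraries and the mean was 4.30 times higher. The 95 nuclear genes held 0.986% and 0.880% in WT and 1.34% and 0.862% in the knockdown, where the groups overlapped and the mean was 1.18 times WT (0.924 times without knockdown replicate 1). The ratio of mitochondrial to nuclear respiratory chain counts, which no scaling of libraries can move, was 0.657 and 0.823 in WT and 2.58 and 2.81 in the knockdown, 3.65 times higher on average. With 2 libraries against 2, the exact permutation test (two-sided) cannot go below p = 0.333, which the mitochondrial share and this ratio both reached, while the nuclear share gave an exact p of 1. Mitochondrial genes made up 39.7% and 45.1% of the respiratory chain counts in WT and 72.1% and 73.8% in the knockdown.

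**Figure D1:**
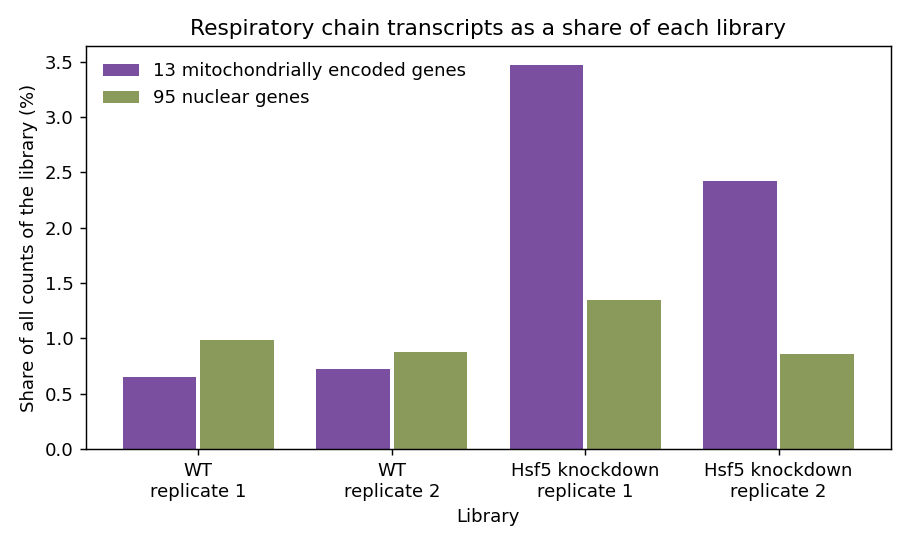
Percent of all counts of each library (bars, vertical axis from 0) held by the 13 mitochondrially encoded genes and by the 95 nuclear genes of the respiratory chain, 1 pair of bars per library. The mitochondrial share was 0.648% and 0.724% in WT and 3.47% and 2.43% in the knockdown, and the nuclear share stayed between 0.862% and 1.34%.

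Of the 12 mitochondrial genes tested, 8 rose, none fell and 4 did not pass (edgeR quasi-likelihood test, adjusted p below 0.05), where 27.4% of all 23594 genes tested were higher and 33.5% lower. Their median log2 fold change was 1.47 (range 0.80 to 1.97) beside -0.12 over all genes. Without WT replicate 2 the 8 calls became 4. In 11 of the 13 genes both knockdown libraries were above both WT libraries, which held for 39% of all genes tested. The exceptions were ND4L and ATP8.

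COX1 is the catalytic subunit of complex IV that holds the heme and copper centres where oxygen is reduced. It had the most counts, with 41.6% to 50.6% of the mitochondrial counts of each library. This rank depends on how multi-mapped reads were counted, which is not stated, as genes such as COX3 share nearly all their sequence with nuclear copies. COX1 stood at 3161 and 4236 CPM in WT and at 14015 and 9993 CPM in the knockdown. Its log2 fold change was 1.70 (SE 0.44, edgeR adjusted p = 0.00856, n = 2 per group), and the call was lost without WT replicate 1 (adjusted p = 0.0582). COX3, another core subunit of complex IV, was at 10.3 and 8.97 CPM in WT and 37.2 and 27.3 in the knockdown (log2 1.74, adjusted p = 0.00331). COX2, which accepts electrons from cytochrome c, was at 47.1 and 29.0 against 100.2 and 52.4 CPM, and its difference of 1.00 did not pass (adjusted p = 0.0509; 0.0113 with library totals).

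CYTB, the mitochondrial subunit of complex III, rose most among the 13, from 1249 and 1215 CPM to 6303 and 3336 CPM (log2 1.97, SE 0.43, edgeR adjusted p = 0.00353). The knockdown replicates lay well apart, and the lower of them was still above both WT values. This call held in every alternative analysis run.

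In complex I the 5 genes with more than 100 CPM in every library, ND1, ND2, ND4, ND5 and ND6, all rose, with log2 fold changes of 1.64, 1.32, 1.46, 1.60 and 1.48. ND1 was at 1162 and 981 CPM in WT and 4393 and 2299 CPM in the knockdown. ND5 was at 359 and 661 CPM in WT and 1464 and 1639 CPM in the knockdown. ND1, ND4 and ND6 were no longer called without WT replicate 2 (adjusted p = 0.0585, 0.0963 and 0.107), ND5 without WT replicate 1 (0.0934), ND2 without either (0.0955 and 0.0561) and ND6 without knockdown replicate 1 (0.0864, log2 0.78). ND6 lies on the other strand of the mitochondrial genome from the rest, and since no source used here gives the strand setting, its reads cannot be told apart from those of the opposite strand.

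ND3, ND4L, ATP6 and ATP8 were low in all libraries, and none was called with all 4 libraries and TMM scaling. ND3 was at 3.22 and 1.22 against 6.97 and 3.64 CPM, ND4L at 0.715 and 2.02 against 1.40 and 3.35 CPM, and ATP6, the proton channel subunit of ATP synthase, at 29.6 and 5.35 against 38.6 and 31.5 CPM. Without WT replicate 1 the log2 difference of ATP6 went from 1.00 to 2.69 and passed (edgeR adjusted p = 4.27e-05), and without WT replicate 2 it was 0.27; ATP6 also passed with no low-count filter (0.0341) and with the replicate number as a block (0.00442). ND3 went from 1.25 to 2.11 and passed without WT replicate 1 (adjusted p = 0.0141), with library totals (0.0475) and with the block (0.0284). ND4L, at 0.80, was 0.21 without WT replicate 1, 1.75 without WT replicate 2 and 0.03 without knockdown replicate 2, with no call. Several mitochondrial genes have near-identical copies in the nuclear genome. The share of 100-base windows found letter for letter in transcripts of other genes was 97.6% for ND3, 98.5% for ND4L, 99.5% for ATP6 and COX2 and 99.9% for COX3. It was 60.8% for ND4, 30.8% for COX1 and 3.19% for ND2, and 0 for ND1, ND5, ND6, CYTB and ATP8. The sources used here do not state how multi-mapped reads were counted, and the levels of the genes with shared windows are uncertain. The genes without any shared window held 0.255% and 0.257% of all counts in WT and 1.43% and 0.918% in the knockdown, a mean 4.57 times higher.

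**Figure D2:**
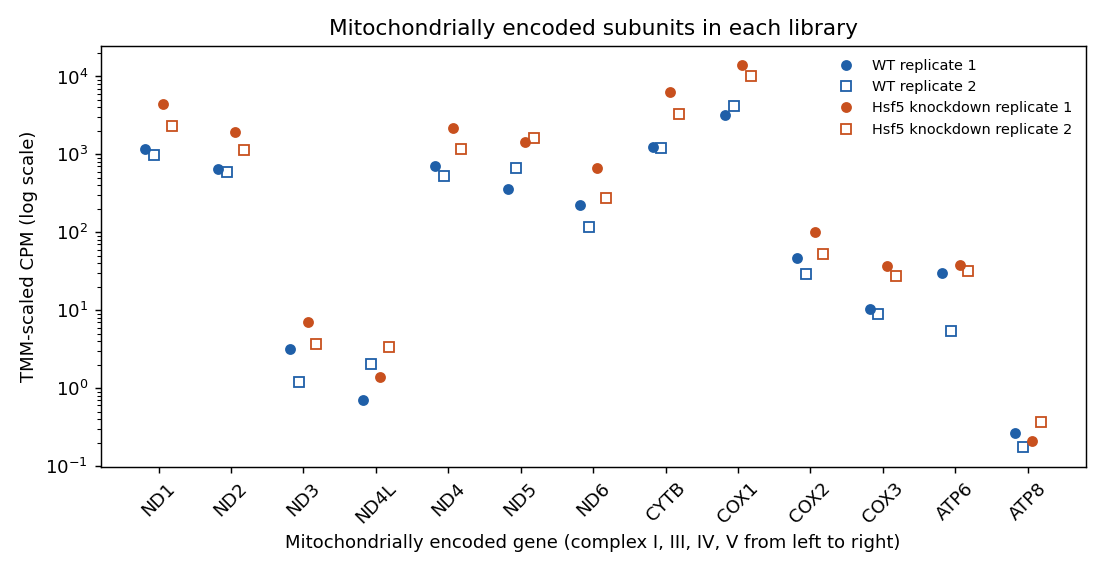
Level of each mitochondrially encoded gene (TMM-scaled CPM, logarithmic vertical axis) in each library, genes ordered by complex along the horizontal axis, blue for WT and orange for the knockdown, 1 point per library. Both knockdown points lie above both WT points in 11 of 13 genes, ND4L and ATP8 being the exceptions, and COX2, COX3, ATP6, ND3, ND4L and ATP8 lie far below the others.

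The nuclear genes did not move as a body. Of the 93 tested, 14 rose, 9 fell and 70 did not pass (edgeR, adjusted p below 0.05), so 24.7% were called where 60.9% of all genes tested were called in either direction. Their median log2 fold change was 0.04. Without the testis and tissue isoforms, the further copies and the X-linked genes, 77 remained, of which 10 rose, 4 fell and 63 did not pass, with a median of 0.04. The balance of these calls followed the scaling: with library totals, which moved the median of all genes from -0.12 to 0.31, 27 nuclear genes were higher and 6 lower, and with meiotic genes (synaptonemal complex and cohesin) as the scale (median of all genes -0.51) 11 were higher and 28 lower. Over all genes the calls were 6467 higher and 7902 lower with TMM, 8122 and 6679 with library totals, and 4404 and 8529 with the meiotic genes as the scale. Without WT replicate 1 the nuclear calls were 11 higher and 5 lower, without knockdown replicate 1 10 and 23, and without knockdown replicate 2 22 and 8, with a nuclear median of -0.50 in the second of these and 0.29 in the third. Of the 14 genes called higher 11 were called so in all 4 other scalings, and of the 9 called lower 6 were. No called member was called in the opposite direction under any of these scalings. Both the 14 and the 11 include Cox7a1, which passed the low-count filter only through the knockdown libraries.

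**Figure D3:**
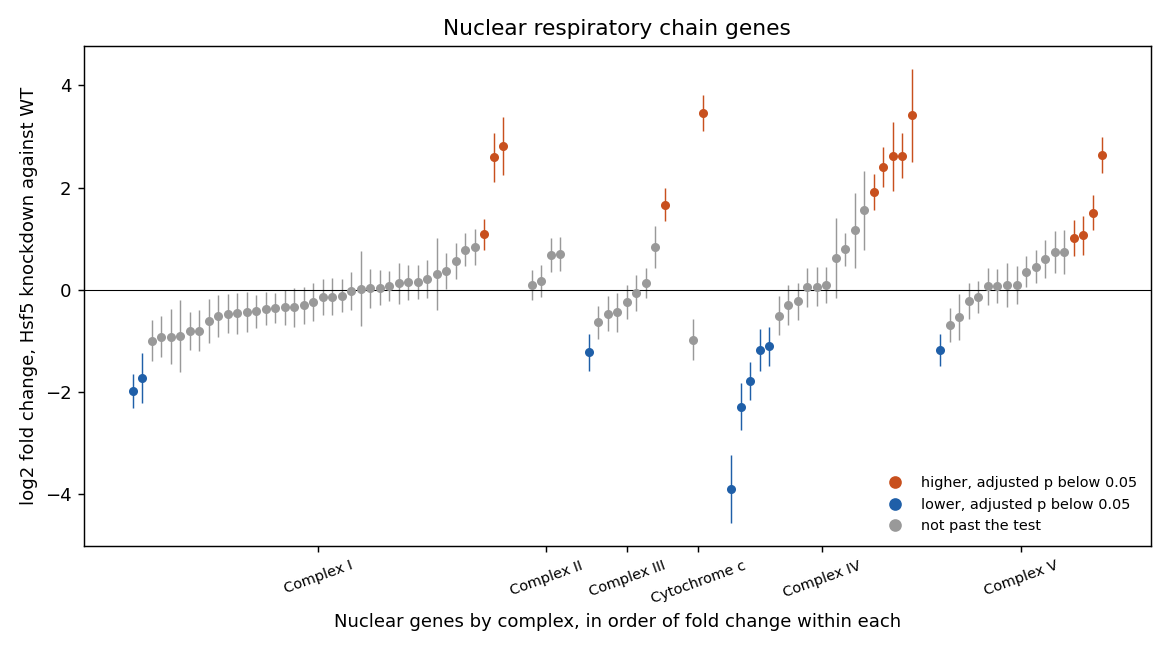
Log2 fold change of the knockdown against WT (vertical axis, bars show 1 standard error of the edgeR fit) for the 93 nuclear genes tested, grouped by complex and ordered by value within each. Most genes lie within 1 log2 unit of 0, and the genes past the test in either direction sit at the ends of each group, from -3.90 to 3.45.

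Few genes of complex I passed. Of 40 nuclear genes tested 3 rose and 2 fell, with a median of -0.19. So 12.5% were called, where 60.9% of all genes tested were (27.4% higher and 33.5% lower). None of the 7 nuclear core subunits, which carry the flavin and the iron-sulfur clusters, passed, and their median was 0.08. Ndufv1, which binds NADH, was at 151 and 160 CPM in WT and 219 and 126 CPM in the knockdown. Ndufv3 and Ndufa13, accessory subunits named for the largest p of the complex among genes of at least 5 CPM, had log2 differences of -0.02 and 0.03.

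The accessory subunit Ndufa12 fell from 133 and 115 CPM to 56.9 and 17.9 CPM (log2 -1.73, SE 0.48, edgeR adjusted p = 0.0116), with a value of -2.72 without knockdown replicate 1 and -1.12 without knockdown replicate 2. Ndufa10 was at 37.9 and 42.5 CPM in WT and 99.6 and 70.6 CPM in the knockdown (log2 1.08, edgeR adjusted p = 0.0136). The call of Ndufa10 was lost when WT replicate 1 (adjusted p = 0.117), WT replicate 2 (0.0501) or knockdown replicate 1 (0.0692) was left out and with the meiotic genes as the scale (0.133). Both genes were named after their values were seen, as they passed the test.

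The other calls of complex I were 2 X-linked genes and a further copy. Ndufb11 and Ndufa1, accessory subunits encoded on the X chromosome, rose from 2.0 and 6.54 CPM to 33 and 26.8 for Ndufb11, and from 3.52 and 5.91 CPM to 36.4 and 20.2 for Ndufa1. Cox7b of complex IV, the remaining X-linked member, rose from 0.835 and 3.82 CPM to 15.7 and 12.6 CPM. So all 3 X-linked genes rose, by 2.81, 2.59 and 2.61 on the log2 scale, and 557 of the 821 X-linked genes tested (67.8%) were higher. Without WT replicate 1 the values for Ndufb11 and Cox7b were 2.18 and 1.87, and without WT replicate 2 they were 3.93 and 4.10. The X chromosome is silenced in normal pachytene spermatocytes and is active in earlier germ cells and in somatic cells. The summed Sertoli and spermatogonial markers were higher in the same libraries, and their part in these rises was not tested.

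Ndufb11b, listed under a symbol next to that of Ndufb11, went the other way, falling from 347 and 299 CPM to 101 and 63.4 CPM (log2 -1.98, SE 0.33, edgeR adjusted p = 0.000934). It made up 99.4% and 97.9% of the counts of the pair in WT and 75.3% and 70.3% in the knockdown, and the log2 difference in the ratio, -5.05, was -4.09 without WT replicate 1 and -6.01 without WT replicate 2. The pair was chosen after its values were seen. No transcript of Ndufb11b was available to compare, so sequence shared with Ndufb11 was not checked and the split of counts within the pair is uncertain. Other further copies were low in all libraries: Ndufb4b, Ndufb4c and Cox6c2 did not exceed 2.52 CPM in any library, and Ndufs6b did not exceed 2.98 CPM. None of these 4 passed.

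None of the 4 genes of complex II passed the test, where 60.9% of all genes tested did, and their median was 0.42. Sdha, the flavoprotein that oxidises succinate, was at 246 and 293 CPM in WT and at 308 and 266 CPM in the knockdown, and Sdhb, the iron-sulfur subunit, at 96.7 and 96.2 against 131 and 85.7 CPM. The groups overlapped in both. The membrane anchors Sdhc and Sdhd had log2 differences of 0.71 and 0.68, with adjusted p of 0.0919 and 0.099 in the edgeR fit. Both were called higher with library totals (log2 1.13 and 1.10) and with the replicate number as a block.

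In complex III 1 of 9 nuclear genes rose and 1 fell, so 22.2% were called where 60.9% of all genes tested were. Cyc1, cytochrome c1, which hands electrons to cytochrome c, rose from 45.1 and 61.4 CPM to 203 and 135 CPM (log2 1.67, SE 0.33, edgeR adjusted p = 0.00213), and no alternative ended that call. Uqcrq, a small subunit, fell from 323 and 260 CPM to 164 and 85.6 CPM (log2 -1.23, adjusted p = 0.0156). That call was lost with library totals (adjusted p = 0.0602) and without WT replicate 1 (0.0732). Uqcrfs1, the Rieske iron-sulfur protein, did not pass, at 161 and 111 against 123 and 73.7 CPM, and neither did Uqcrh and Uqcrc2, with differences of -0.06 and 0.13.

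The isoforms of complex IV and cytochrome c included the largest differences in both directions among the nuclear genes. All 4 testis isoforms were below WT in both knockdown libraries, which held for 43.7% of all genes tested, and 3 of the 4 passed the test. All 4 somatic partners were above WT in both knockdown libraries, which held for 39% of all genes tested, and all 4 passed. Over all genes tested, 27.4% were called higher and 33.5% lower. Partners are counted in the same libraries, so a ratio of partners is free of library scaling.

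Cox8c, the testis form of the smallest subunit of complex IV, fell from 948 and 528 CPM to 210 and 92.1 CPM (log2 -2.29, SE 0.47, edgeR adjusted p = 0.00241). Its somatic partner Cox8a rose from 5.93 and 13.6 CPM to 65.9 and 54.2 CPM (log2 2.62, SE 0.44, adjusted p = 0.000968). Without knockdown replicate 1 the value for Cox8c was -2.92, and without WT replicate 2 that for Cox8a was 3.36. Cox8c held 99.4% and 97.5% of the pair's counts in WT and 76.1% and 63.0% in the knockdown.

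Cox6b2, the testis form of the subunit that bridges the monomers of complex IV on the side facing cytochrome c, fell from 445 and 362 CPM to 153 and 80.7 CPM (log2 -1.79, SE 0.37, edgeR adjusted p = 0.00259). Cox6b1 rose from 13 and 13.2 CPM to 57.8 and 40.4 CPM (log2 1.91, SE 0.35, adjusted p = 0.00153). The share of Cox6b2 in the pair went from 97.2% and 96.5% to 72.6% and 66.6%.

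Cox7b2 was at 227 and 148 CPM in WT and at 114 and 51.0 CPM in the knockdown (log2 -1.19, SE 0.41, edgeR adjusted p = 0.0307). This call was the least firm of the 3 and was lost with library totals (adjusted p = 0.112), without WT replicate 1 (0.152) and without knockdown replicate 2 (0.0866), and the value was -1.80 without knockdown replicate 1. Its share beside the X-linked Cox7b was 99.6% and 97.5% in WT and 87.9% and 80.2% in the knockdown.

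Cyct was at 145 and 109 CPM in WT and at 89.7 and 39.3 CPM in the knockdown. The groups did not overlap, but the difference of -0.98 (SE 0.40) did not pass (edgeR adjusted p = 0.0586). It passed in 7 of the alternatives, among them DESeq2 size factors in the same fit (0.0441) and the meiotic genes as the scale (0.00571), and the value was -1.61 without knockdown replicate 1. Cycs, which carries electrons in somatic cells and also activates the caspase cascade when released from mitochondria, rose more than any other member past the test, from 6.47 and 7.99 CPM to 88.8 and 69.2 CPM (log2 3.45, SE 0.35, edgeR adjusted p = 6.92e-05). Cyct held 95.7% and 93.2% of cytochrome c counts in WT and 50.2% and 36.2% in the knockdown, so Cycs had more counts than Cyct in knockdown replicate 2. Of the 100-base windows of Cycs 24.7% were found in transcripts of other genes, so its level is less certain. For the other called nuclear genes with a transcript to compare, the share was at most 6.29%.

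On the log2 scale the ratio of testis to somatic form differed between the groups by -3.74 for Cox6b2 and Cox6b1, -4.23 for Cox7b2 and Cox7b, -5.08 for Cox8c and Cox8a and -4.52 for Cyct and Cycs. In each of the 4 pairs both knockdown libraries had lower ratios than both WT libraries, and each exact permutation test over the 4 libraries gave p = 0.333, the smallest it can. Leaving out 1 WT library moved several of these values: the difference for Cox7b2 and Cox7b was -2.83 without WT replicate 1 and -5.63 without WT replicate 2, and for Cox8c and Cox8a it was -4.06 and -6.10. It stayed between -3.53 and -3.94 for Cox6b2 and between -4.11 and -4.94 for Cyct with any library left out. The somatic forms are expressed in Sertoli and Leydig cells as in most cells. Both marker lists summed to more in the knockdown and also to more in WT replicate 2 than in WT replicate 1, and Cox8a and Cox7b were higher in WT replicate 2 as well, while Cox6b1 was 13 and 13.2 CPM and Cycs 6.47 and 7.99 CPM. The part of somatic RNA in these ratios was not tested.

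**Figure D4:**
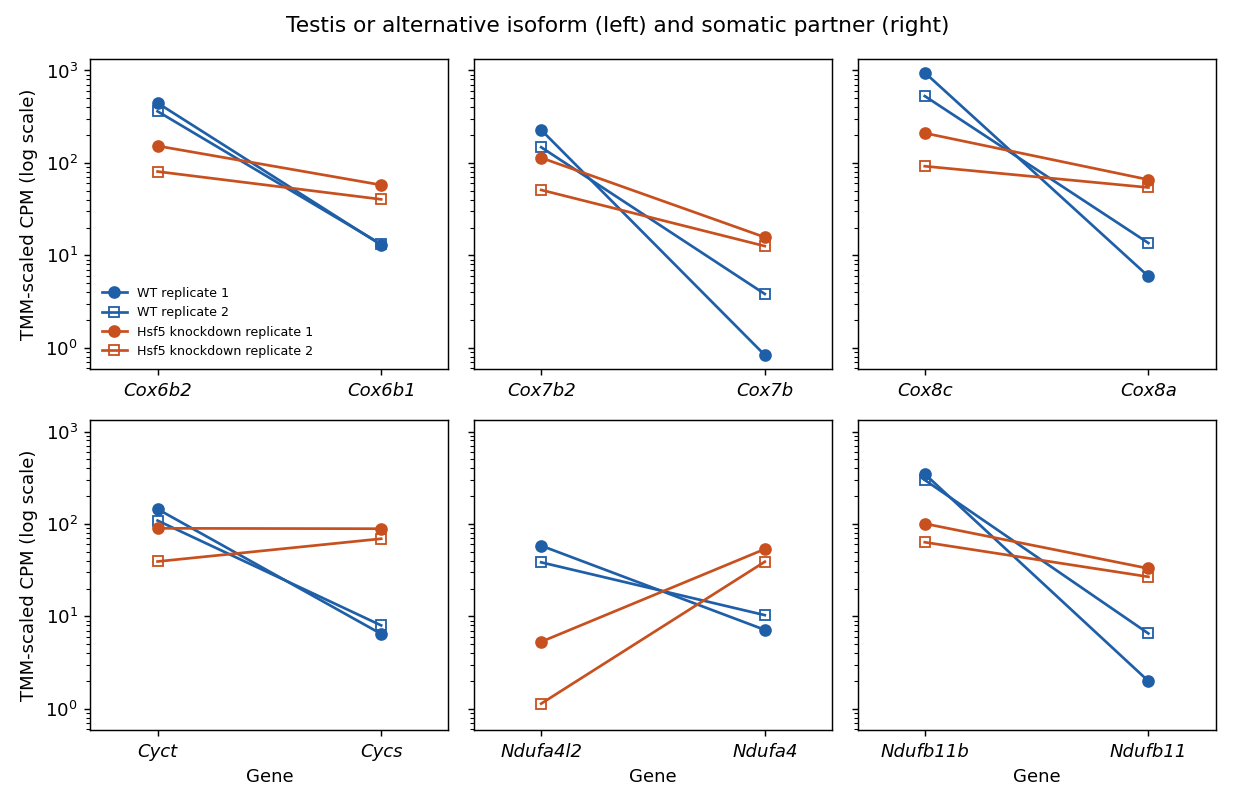
Levels (TMM-scaled CPM, logarithmic vertical axis) of 6 isoform pairs, the testis or alternative form at the left of each panel and the somatic partner at the right, with 1 line per library, blue for WT and orange for the knockdown. In each panel the WT lines start above and end below the knockdown lines, and the lines cross in between. Ndufb11b and Ndufb11 were paired by symbol only.

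Of the isoforms made in other tissues, Ndufa4l2, a relative of the complex IV subunit Ndufa4, fell from 58.2 and 38.4 CPM to 5.32 and 1.14 CPM (log2 -3.90, SE 0.67, edgeR adjusted p = 0.00103), the largest fall among the 105 tested. Ndufa4 rose from 7.15 and 10.3 CPM to 53.5 and 39.0 CPM (log2 2.40, SE 0.39, adjusted p = 0.000727). Ndufa4l2 went from 89.1% and 78.8% of the pair's counts to 9.05% and 2.84%, a log2 difference in the ratio of -6.66. Without knockdown replicate 1 the log2 value of Ndufa4l2 was -5.32 and the ratio difference -7.54, and without knockdown replicate 2 they were -3.17 and -5.79.

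The heart and muscle forms were barely present. Cox7a1 was at 0.0596 and 0.0348 CPM in WT and at 0.572 and 0.509 CPM in the knockdown, from counts of 2 and 1 against 27 and 21. It passed the low-count filter only through the knockdown libraries and was not tested at a mean of at least 1 CPM. No rise is therefore read from its call (log2 3.41, edgeR adjusted p = 0.00989). The call was lost with any library left out and in the DESeq2 test (adjusted p = 0.0579). Cox6a2 and Cox4i2, the lung form of subunit 4, stayed below 1 CPM in every library and did not pass. Cox8b was not tested.

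Among the remaining subunits of complex IV, Cox7a2 was at 123 and 84.8 CPM in WT and 63.9 and 32.7 CPM in the knockdown (log2 -1.11, edgeR adjusted p = 0.029). The call was lost with library totals (adjusted p = 0.123), without WT replicate 1 (0.160) and without knockdown replicate 2 (0.110). Cox4i1, the largest nuclear subunit, was at 433 and 433 against 488 and 252 CPM, where the groups overlapped. Cox6a1 was at 168 and 161 against 350 and 221 CPM and missed the threshold (log2 0.79, edgeR adjusted p = 0.0552). It passed with library totals (0.00666), with no low-count filter (0.0312) and with the replicate number as a block (0.0123). The value was 1.09 without knockdown replicate 2. Cox5b and Cox6c had differences of 0.05 and 0.06.

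In ATP synthase 4 of 18 nuclear genes rose and 1 fell, with a median of 0.22. So 27.8% were called, where 60.9% of all genes tested were (27.4% higher and 33.5% lower). The 3 genes of the c ring, the proton-driven rotor in the membrane, all rose. Their precursors differ in the targeting peptide and give the same mature protein. Atp5mc2 rose from 13.6 and 14.8 CPM to 107 and 69.7 CPM (log2 2.63, SE 0.35, edgeR adjusted p = 0.000259) and Atp5mc3 from 61.2 and 82.9 CPM to 253 and 157 CPM (log2 1.51, adjusted p = 0.00403). Atp5mc1 was at 39.6 and 31.4 against 88.5 and 54.7 CPM (log2 1.01, adjusted p = 0.0281), a call that was lost with the meiotic genes as the scale (adjusted p = 0.210) and without WT replicate 1 (0.0603), WT replicate 2 (0.150) or knockdown replicate 1 (0.164).

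None of the 5 subunits of the catalytic F1 head passed, and none of the 4 of the peripheral stalk. Atp5f1b, the catalytic beta subunit, was at 708 and 776 CPM in WT and 907 and 655 CPM in the knockdown. Atp5pd of the stalk and Atp5f1e of the head had differences of 0.07 and 0.09. Of the 5 small membrane subunits Atp5mg alone passed, at 35.4 and 27.2 against 86.2 and 44.6 CPM (log2 1.06, edgeR adjusted p = 0.0357). This call was lost with the meiotic genes as the scale (adjusted p = 0.216) and without WT replicate 2 (0.137) or knockdown replicate 1 (0.267). Atp5if1, the inhibitor that blocks ATP hydrolysis by the enzyme, fell from 179 and 141 CPM to 82.6 and 58.9 CPM (log2 -1.18, SE 0.31, adjusted p = 0.00895), and lost the call without WT replicate 1 (0.0838).

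Levels per length of exon (RPKM, counts scaled to exon length and library size) were ranked for the 101 genes with a length. The place of COX1 and the other mitochondrial genes in this order depends on how multi-mapped reads were counted. Members with no length were left out of the ranking. Among them were Ndufb11b, at 347 and 299 CPM in WT, Atp5if1, at 179 and 141, and Atp5pb, at 163 and 129. Atp5pb was at 294 and 149 CPM in the knockdown. Of the nuclear genes ranked, 3 of the 4 testis isoforms were among the 5 with the highest WT means. Cyct, with a WT mean of 194 RPKM, was lower in that order. Cox8c had 2070 and 1154 RPKM in WT, above COX1 (2046) in WT replicate 1 and below it (2742) in WT replicate 2. The next nuclear genes by WT mean RPKM were Cox4i1 with 566, Cox6b2 with 544, Atp5f1b with 387 and Cox7b2 with 346. In the knockdown COX1 led with 9071 and 6468 RPKM, and by mean RPKM the first nuclear genes were Cox6a1 with 500.5, Cox4i1 with 483.5, Atp5f1b with 408, Atp5f1e with 359 and Cox8c with 330.0. The knockdown replicates spread more widely than these nuclear means differ, for example 637 and 330 RPKM for Cox4i1 and 613 and 388 RPKM for Cox6a1, so the order of these neighbours was not resolved.

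Genes that build and serve the chain were counted from lists of related genes, to be read beside the 27.4% of all genes tested that were higher, the 33.5% that were lower and their median of -0.12. Of 55 assembly factors tested 12 rose and 8 fell, with a median log2 fold change of -0.23. Of 10 further subunits and enzymes that feed the chain but fall outside the symbols chosen, 3 rose and 3 fell (median 0.70), and of 13 genes of coenzyme Q synthesis 6 rose and 1 fell (median 0.56). Of 29 genes that maintain, transcribe or translate mitochondrial DNA and RNA 10 rose and 3 fell (median 0.41), and of 12 regulators of mitochondrial biogenesis 5 rose and 2 fell (median 0.41). Over these lists together with those of the TCA cycle, carriers and protein import, 64 genes rose and 31 fell, and with the meiotic genes as the scale 41 rose and 48 fell.

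Hccs, the X-linked enzyme that attaches heme to cytochromes c and c1, rose from 2.15 and 1.53 CPM to 27.3 and 22.3 CPM (log2 3.75, SE 0.45, edgeR adjusted p = 0.00017). Of the members that receive its heme, Cycs and Cyc1 rose, and Cyct had a log2 difference of -0.98 that did not pass. Gpd2 and Sqor, enzymes that pass electrons from glycerol phosphate and from sulfide to coenzyme Q, fell: Gpd2 from 141 and 92.5 CPM to 3.94 and 6.52 (log2 -4.48), Sqor from 108 and 67.2 CPM to 3.90 and 4.82 CPM (log2 -4.33).

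Of the assembly factors, Cox15, needed for the heme A of complex IV, rose from 7.12 and 12.2 CPM to 39.8 and 45.3 CPM (log2 2.14). Ndufaf3, an assembly factor of complex I, fell from 639 and 643 CPM to 210 and 105 CPM (log2 -2.03), and Coa4 of complex IV from 27.7 and 25.9 CPM to 5.40 and 5.94 CPM (log2 -2.24). In coenzyme Q synthesis Coq2 and Coq10a rose (log2 1.60 and 2.14) and Coq4 fell from 115 and 111 CPM to 24.9 and 22.5 CPM (log2 -2.26). All 6 had edgeR adjusted p of at most 0.00497.

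The regulators split. Ppargc1a, the coactivator PGC-1 alpha that raises nuclear respiratory genes in muscle and fat, fell from 6.23 and 7.61 CPM to 0.212 and 0.242 CPM (log2 -4.91, SE 0.63, edgeR adjusted p = 0.000227). Its relative Pprc1 rose from 12.1 and 13 CPM to 84.9 and 108 CPM (log2 2.95, SE 0.33, adjusted p = 0.000104), and Nfe2l2, a factor of the oxidative stress response, from 4.83 and 8.79 CPM to 42.6 and 49.2 CPM (log2 2.75). Among genes acting on mitochondrial DNA and RNA, Lonp1, a matrix protease, rose from 28.2 and 39.7 CPM to 135 and 146 CPM (log2 2.05), Top1mt, the mitochondrial topoisomerase, from 2.77 and 3.27 CPM to 14.3 and 13.5 CPM (log2 2.21), and the X-linked Hsd17b10, a subunit of mitochondrial RNase P, from 1.52 and 4.62 CPM to 28.7 and 30.1 CPM (log2 3.26, and 2.65 without WT replicate 1 and 4.29 without WT replicate 2). None of the calls named for these 3 genes or for the 3 regulators was lost in the alternatives run.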

How the data were processed

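Polyadenylated RNA was captured on poly-T beads, per the labels' protocols, so levels of genes depend on their poly(A) tails. The authors deposited 1 table of raw counts, a row for each gene symbol and a column for each library, matched to the labels by name. Per the submitters' processing notes, the tools were HISAT2 2.2.1, Trim Galore 0.6.10, DESeq2 1.46.0 and featureCounts 1.5.3, and the genome build was mm39. Annotation, strand setting and the treatment of multi-mapped reads: not given in the sources used here.

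In R 4.3.3 with edgeR 4.0.16, filterByExpr kept 23594 of 36809 genes that had a count. TMM scaling used factors of 0.854 and 0.865 for the WT libraries and 1.11 and 1.22 for the knockdown libraries, and the quasi-likelihood F test was adjusted over all genes tested by Benjamini-Hochberg at 0.05. The biological coefficient of variation was 0.356. SE values are approximate, taken as the log2 fold change over the root of its F statistic. Shares and ratios used the counts as deposited, with 0.5 added to each count of a log2 ratio, and were set side by side with exact permutation tests over the 4 libraries. Lists were described by counts and medians only.

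The genes, the lists and the tests were chosen with earlier results of these data known. Named by rule were the 13 mitochondrial genes, the isoforms and their partners, the X-linked members, and per complex up to 3 members past the threshold with the smallest p and 2 with the largest p (mean of at least 5 CPM), and per list up to 3 with the smallest p. Ndufa10, Ndufa12, Atp5mc1, Atp5mg and other members outside the rule were named after their values were seen. The pairing of Ndufb11b with Ndufb11 was also chosen after its values were seen. Of 317 list entries 315 matched. Chromosomes (104 members) came from RefSeq GRCm38, exon lengths (101 members) and shared windows from GENCODE M21, and promoters from RefSeq GRCm38.p6, builds older than mm39.

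Alternatives were DESeq2 size factors in edgeR, library totals, TMM without mitochondrial genes, scaling on synaptonemal complex and cohesin genes, no low-count filter, a minimum mean of 1 CPM, a block for the replicate number, leaving out each library, the Wald test of DESeq2 1.42.0, and a log2 fold change of at least 1.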

Additional observations from a re-analysis of the deposited data

How the results depend on the processing

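The nuclear genes called higher numbered 14, and 10 to 22 with a library left out, with 27 for library totals; those called lower numbered 9, and 5 to 23 with a library left out, with 28 for scaling on synaptonemal complex and cohesin genes. The mitochondrial genes called higher numbered 8, and 4 to 9 with a library left out. The median of all genes was -0.12, and 0.049 to -0.27 with a library left out, 0.31 with library totals, -0.51 with the meiotic genes as the scale, -0.22 without a filter, -0.026 at a mean of at least 1 CPM and -0.28 in the DESeq2 test. The nuclear median of 0.04 was -0.44 with the meiotic genes as the scale and -0.50 to 0.29 with a library left out. The mitochondrial median of 1.47 was 0.98 with the meiotic genes as the scale and 1.00 to 1.76 with a library left out. For the lists of related genes the median was 0.80 with library totals and -0.078 with the meiotic genes as the scale, where 41 genes were higher and 48 lower. The cause of these shifts was not tested, apart from the scaling itself and the fewer libraries.

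With the replicate number as a block, 21 nuclear genes were higher and 20 lower. Deviations of libraries with the same number correlated by 0.32 across all genes tested and by 0.47 across the respiratory chain genes tested. With 2 numbers per group this does not tie the libraries. The replicate block was therefore left out of the main fit and is given only as an alternative, here and for single genes above.

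The mitochondrial share, its ratio to the nuclear share and the ratios of the 4 testis isoforms to their partners kept their direction with each alternative run on them. The nuclear share, 1.18 times WT, was 0.924 times WT without knockdown replicate 1. With 2 libraries per group, p-values of differences near 1 log2 unit lie close to the threshold, and genes under 1 CPM rest on few counts.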

Other observations

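Of 25 genes of the TCA cycle and pyruvate dehydrogenase 13 rose and 6 fell, with a median log2 fold change of 0.94, beside 27.4% higher, 33.5% lower and a median of -0.12 over all genes tested. Mdh2 and Fh1, malate dehydrogenase and fumarase of the cycle, both rose: Mdh2 was at 21.3 and 24.1 CPM in WT and 147 and 118 in the knockdown (log2 2.54), Fh1 at 10.4 and 11.8 against 70.1 and 53.8 CPM (log2 2.48). Pdk1, a kinase that inhibits pyruvate dehydrogenase, rose from 2.41 and 4.76 CPM to 45.4 and 61.2 CPM (log2 3.89, edgeR adjusted p = 0.000143). Pdha2, the testis form of the E1 alpha subunit of pyruvate dehydrogenase, fell from 325 and 298 CPM to 164 and 106 CPM (log2 -1.21, adjusted p = 0.0094; 0.0541 without WT replicate 1), and its X-linked somatic partner Pdha1 rose from 0.507 and 2.12 CPM to 10.4 and 14.6 CPM (log2 3.26, and 2.54 without WT replicate 1 and 4.64 without WT replicate 2). Pdk1 was at 4.49 without WT replicate 2. Pdha2 held 99.8% and 99.3% of the pair's counts in WT and 94.0% and 87.9% in the knockdown.

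Of 11 adenine nucleotide and phosphate carriers and channels 4 rose and 2 fell (median 0.60), where 27.4% of all genes tested were higher and 33.5% lower. Slc25a31, the testis form of the ADP/ATP carrier, did not move with the testis isoforms of complex IV. It was at 138 and 114 CPM in WT and at 261 and 145 CPM in the knockdown. Slc25a31 did not pass (log2 0.69, edgeR adjusted p = 0.108), but did with library totals (0.0149) and with the replicate number as a block (0.0288). Its somatic relatives Slc25a4 and Slc25a5 rose by 3.41 and 3.34 on the log2 scale, Slc25a4 from 4.92 and 10.7 CPM to 90.9 and 75.6 CPM, so the share of Slc25a31 beside Slc25a4 went from 96.6% and 91.4% to 74.2% and 65.8%. Vdac1, the main channel of the outer membrane, rose from 4.17 and 14.4 CPM to 89.5 and 90.9 CPM (log2 3.29), and Slc25a41, an ATP and phosphate carrier, fell from 8.44 and 5.74 CPM to 0.614 and 0.436 CPM (log2 -3.74). Without WT replicate 2 the values were 4.10 for Slc25a4, 4.80 for Slc25a5 and 4.46 for Vdac1, and without WT replicate 1 those of Slc25a5 and Vdac1 were 2.61 and 2.63. Of 35 genes of protein import and inner membrane shape 11 rose and 6 fell (median 0.13), to be read beside the same 27.4% and 33.5%. Tomm20l, a testis relative of the import receptor Tomm20, fell from 29.4 and 17.1 CPM to 0.191 and 0.0727 CPM (log2 -7.40, SE 0.67, adjusted p = 3.35e-05; log2 -8.17 without knockdown replicate 1), and Timm8a2 from 28.9 and 30.0 CPM to 6.44 and 4.87 CPM (log2 -2.38), while Phb1, prohibitin, rose from 11.2 and 13.2 CPM to 67.6 and 55.6 CPM (log2 2.33).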
